A study of Homo sapiens with 2 samples.

Results

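The genes described here encode the respiratory chain and the ATP synthase, and were followed in CWR22rv1 cells with and without Akt1 and Akt2. They were chosen by symbol from the deposited expression table: nuclear genes with the NDUFA, NDUFB, NDUFC, NDUFS, NDUFV, SDHA to SDHD, UQCR, CYC1, COX4 to COX8 and ATP5 symbols, and the protein-coding genes of mitochondrial DNA with the prefix MT-. The rule found 104 of the 19607 genes in the table, 91 encoded in the nucleus and 13 in mitochondrial DNA (mtDNA). The table uses older symbols for the ATP synthase, such as ATP5A1 and ATP5B for the genes now called ATP5F1A and ATP5F1B. Of the 91 nuclear genes, 75 encode subunits found in most tissues. The others are 7 tissue-restricted isoforms, 3 retrocopies, 3 loci that overlap a subunit gene, and 3 genes (COX7A2L, ATP5S and ATP5SL) whose products are not subunits of the complex their symbol names.

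CWR22rv1 is a human prostate cancer cell line. RNA sequencing compared 1 library of CWR22rv1/Akt1/2 DKO cells, in which CRISPR/Cas9 was aimed at AKT1 and AKT2 together, with 1 library of control cells, labelled wild type, in order to find transcripts that depend on Akt. Both kinds of cells were grown in medium with foetal bovine serum. The DKO cells came from isolated single-cell clones, more than 1 such clone was made, and the labels do not say which was sequenced, so differences between a clone and its parent line cannot be told apart from those due to the loss of Akt1/2.

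The respiratory chain passes electrons from NADH (complex I) and succinate (complex II) through ubiquinone to complex III, cytochrome c and complex IV, which reduces oxygen. Complexes I, III and IV pump protons across the inner mitochondrial membrane, and complex V, the ATP synthase, uses the gradient to make ATP. Complex II is built from nuclear genes alone, whereas the other complexes combine nuclear subunits with a few encoded in mtDNA, which is transcribed as long RNAs that are cut into single messages. Prostate epithelium is known for truncating the citric acid cycle to secrete citrate, and prostate cancer cells for running the cycle more fully.

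Total estimated counts were 9970820 reads in control cells and 10718650 in DKO cells. A log2 fold change is the log2 ratio of reads, DKO to control, after scaling by TMM (trimmed mean of M values), which set the ratio of library sizes at 1.11. Each condition is 1 library, so the spread between cultures is unknown and no test was run, and the 95% exact intervals given here cover counting error only. A gene was called higher or lower when it differed by at least 1.5-fold, and calls were made only for the 13318 genes with 10 or more reads summed over both libraries. AKT1 had 2645 reads in control cells and 591 in DKO cells (log2 fold change -2.31), and AKT2 had 2362 and 667 (-1.97). Counts over whole genes do not show the edited sites. All 12 markers of luminal prostate epithelium were detected in both libraries. The 4 markers of endothelium together had 2 and 2 reads, and the 5 of leukocytes 6 and 11. The 7 fibroblast markers summed to 1037 reads in control cells and 240 in DKO cells, of which VIM made up 897 and 84. Of the 4 that passed the filter, VIM and COL3A1 (74 and 9) were lower past 1.5-fold and COL1A1 (55 and 106) and LUM (5 and 35) higher, while DCN had 3 and 0. The part of these differences in the values that follow was not tested.

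The sequences shown here belong to genes on which the results turn: ATP5A1, which had the lowest log2 fold change of the chain, NDUFB4 and UQCRC1, which lie on chromosome 3 and were lower with their neighbours, and SDHA, the lowest of complex II. Each promoter is the 170 bases before the transcription start in RefSeq (GRCh38.p14), and capitals mark matches on either strand to the NRF1 motif, which is GCGCA and GCGC with any 1 base between them. NRF1, nuclear respiratory factor, is a transcription factor known for binding the promoters of many respiratory genes.
ATP5A1 (chr18:46104228-46104397, minus strand): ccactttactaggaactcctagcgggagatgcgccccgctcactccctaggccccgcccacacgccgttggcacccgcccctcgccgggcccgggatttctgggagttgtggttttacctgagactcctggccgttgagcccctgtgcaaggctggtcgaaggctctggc
NDUFB4 (chr3:120596166-120596335, plus strand): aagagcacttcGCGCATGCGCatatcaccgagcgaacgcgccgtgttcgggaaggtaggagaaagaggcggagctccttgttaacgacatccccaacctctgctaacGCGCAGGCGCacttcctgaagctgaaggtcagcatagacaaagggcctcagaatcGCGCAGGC
UQCRC1 (chr3:48609647-48609816, minus strand): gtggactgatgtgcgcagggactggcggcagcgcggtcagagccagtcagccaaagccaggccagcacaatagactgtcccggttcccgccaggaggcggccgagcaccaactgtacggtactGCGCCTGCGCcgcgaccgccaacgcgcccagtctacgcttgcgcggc
SDHA (chr5:218150-218319, plus strand): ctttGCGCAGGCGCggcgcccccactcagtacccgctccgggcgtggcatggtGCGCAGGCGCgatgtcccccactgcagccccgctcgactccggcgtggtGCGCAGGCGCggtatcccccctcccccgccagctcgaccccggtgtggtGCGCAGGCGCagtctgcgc
The ATP5A1 stretch holds no match. The SDHA promoter holds 4, which begin 166, 117, 68 and 19 bases before the start, and the last match in NDUFB4 begins 8 bases before the start and runs past it, so that its end is not shown.

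Across the chain, transcript levels in the DKO library stayed close to those of the control library. Of the 104 genes, 95 passed the filter on reads (82 nuclear and 13 of mtDNA), and 4 of these were past 1.5-fold (4.21%), all lower in the DKO library: ATP5A1, NDUFB5, NDUFB4 and COX7A2L. None was higher. Among all 13318 genes, 30.9% were past 1.5-fold, 15.9% higher and 15.0% lower, and among the 9824 genes with at least 200 reads, 20.3% were (4 of 94 genes of the chain at that depth). With total-count scaling, upper-quartile scaling or the FPKM values (fragments scaled to transcript length and library depth) computed by the authors, 2 of the 95 were past 1.5-fold, 1 lower (ATP5A1) and 1 higher (NDUFC2). At a looser limit of 0.32 on the log2 scale, 21 of the 95 were past it (22.1%), against 50.7% of all genes, and at 2-fold none was, against 17.9%. Just past the 1.5-fold limit lay NDUFB4 and COX7A2L (both -0.59), and just short of it NDUFC2 (0.55) and MT-CO3 (-0.54).

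The median absolute log2 fold change was 0.13 over the 95 genes and 0.26 over all genes with at least 200 reads. Of the 82 nuclear genes, 60 lay within 0.25 of no difference on the log2 scale (73.2%), against 49.0% of all genes with at least 200 reads. The median log2 fold change was -0.03 for the nuclear genes and -0.06 for those of mtDNA, beside 0.01 for all genes. Counting error alone covered 0 for 40 of the 95 genes, while 22 intervals lay above 0 and 33 below. Among all 13318 genes, 5438 intervals covered 0, 3963 lay above and 3917 below. Median reads summed over both libraries were 3103 for the 95 genes and 637 for all genes, and more reads give narrower intervals. The order of levels hardly differed between the libraries, with a Spearman correlation of FPKM of 0.981 over the 95 genes, a description across genes that are not independent replicates.

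**Figure D1:**
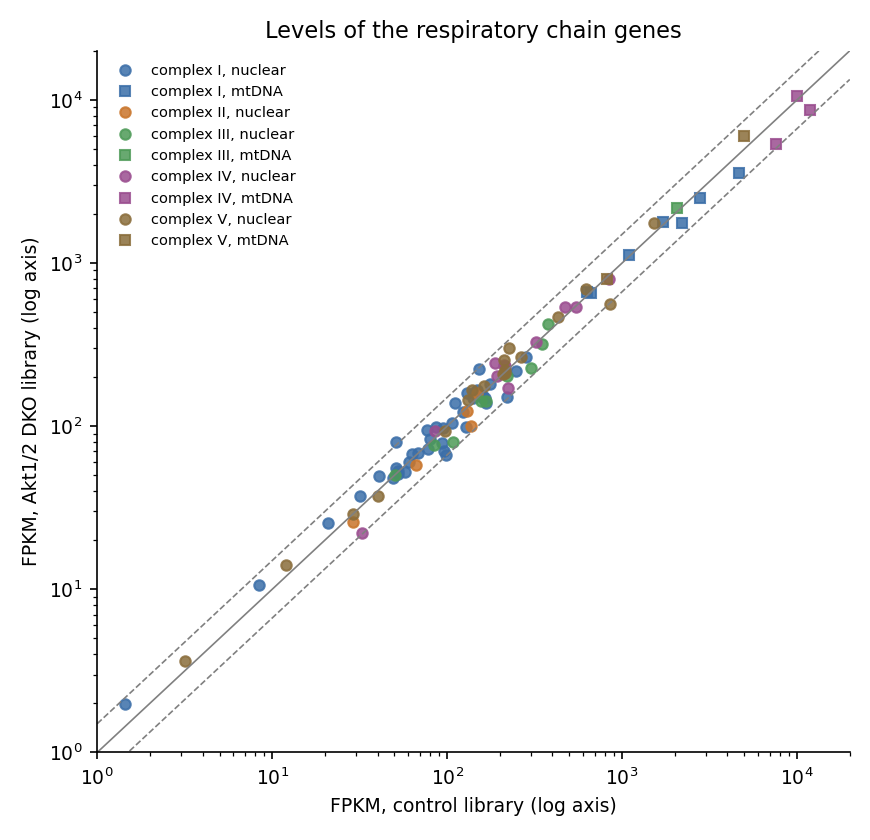
FPKM of the 95 respiratory chain genes that passed the filter in the control library (horizontal) and the Akt1/2 DKO library (vertical), both on log axes, coloured by complex, with squares for genes of mtDNA. The solid line marks equal values and the dashed lines a 1.5-fold difference, and by this measure ATP5A1 lies below the lower line and NDUFC2 above the upper one.

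By complex, the nuclear medians ranged from -0.20 to 0.07. Complex III was the most one-sided, with 8 of its 9 measured nuclear genes below 0 and a median of -0.16 (none past 1.5-fold). Among all genes, 6567 of 13318 were below 0. UQCRFS1 was among the 8, but its value ran from -0.04 to 0.01 over the scalings and FPKM, so the count depended on the scaling. Without the complex III gene on chromosome 3 the median was -0.15. Complex II had a median of -0.20 over 5 identifiers, 4 of them below 0. Complex I had a median of -0.02 over 39 genes, with 2 called lower, complex IV 0.02 over 11 with 1 called lower, and complex V 0.07 over 18 with 1 called lower. The called shares were 5.13% in complex I, 9.09% in complex IV and 5.56% in complex V. Among all genes 30.9% were called, 15.0% as lower. With total-count or upper-quartile scaling the complex I median was 0.02 and 0.03, so its sign depended on the scaling, as did that of all nuclear genes (0.01 and 0.02).

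**Figure D2:**
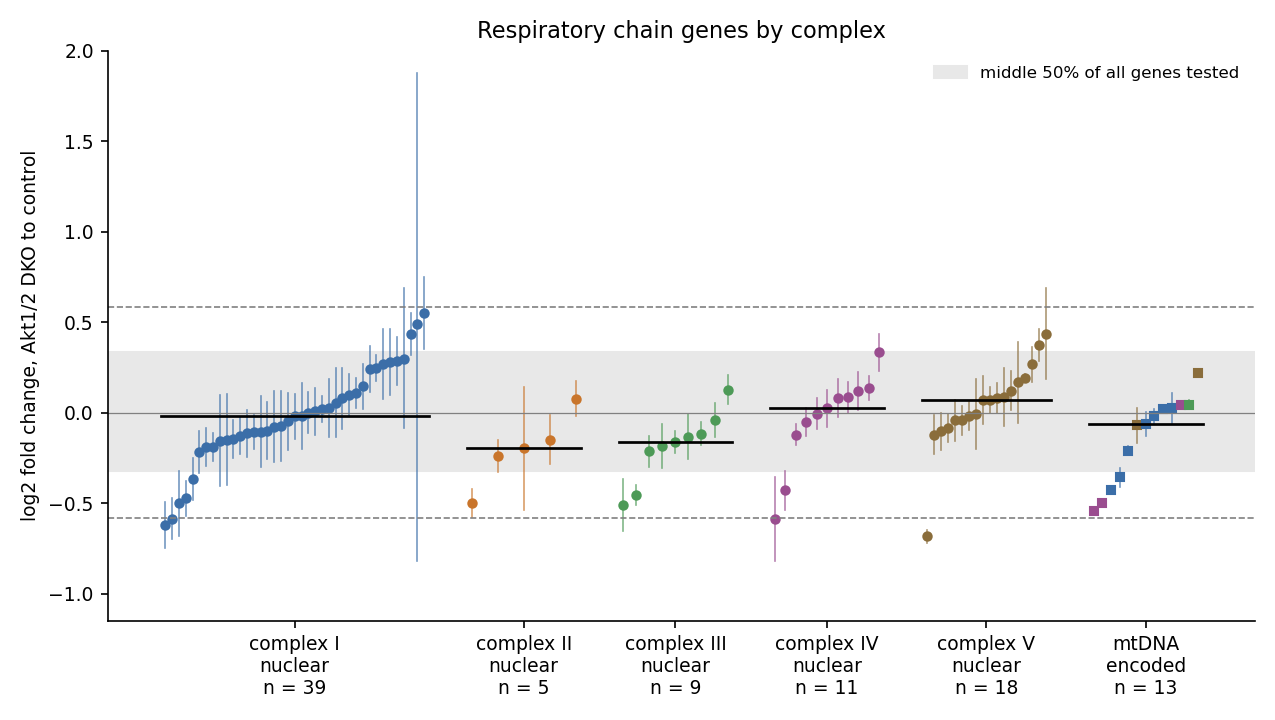
Log2 fold change of each respiratory chain gene, Akt1/2 DKO to control, with its 95% exact interval (counting error only), sorted within each group. Black lines are group medians, the grey band holds the middle 50% of all genes tested, dashed lines mark 1.5-fold, and in the mtDNA group colours repeat those of the complexes; ATP5A1, at the lower end of complex V, is the lowest gene.

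Complex I oxidizes NADH. Its nuclear core subunits, which carry the flavin and the iron-sulfur clusters, differed little. NDUFS1, which holds iron-sulfur clusters of the electron-input arm, had 2652 reads in control cells and 2579 in DKO cells (log2 fold change -0.19, interval -0.27 to -0.11). NDUFV1, the flavin-binding subunit that takes electrons from NADH, had 2245 and 2681 reads (0.11, interval 0.03 to 0.19). The most abundant nuclear subunit per length, NDUFS5, had an FPKM of 281.82 and 265.89. The core subunits named here were thus on both sides of 0.

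The called complex I genes encode accessory subunits of its membrane arm. NDUFB5 (ENSG00000136521, chr3:179604690-179627647) had 1197 reads in control cells and 862 in DKO cells, for a log2 fold change of -0.62 (interval -0.75 to -0.49). NDUFB4 (ENSG00000065518, chr3:120596309-120602500) had 1494 and 1103 reads, for a log2 fold change of -0.59 (interval -0.70 to -0.47). In the opposite direction, NDUFC2, another membrane arm subunit, had 336 and 546 reads, the highest log2 fold change of the chain (0.55, interval 0.35 to 0.75), and an FPKM of 51.1 and 79.83. NDUFC2 shares reads with the overlapping locus NDUFC2-KCTD14, which had 9 and 14 reads, so its count is uncertain. Among the other 35 complex I genes, the log2 fold changes ran from -0.50 to 0.43.

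NDUFA4L2, a paralog of NDUFA4 known for its induction by hypoxia, was the only tissue-restricted isoform with more than 1 read in a library. It had 99 reads in control cells and 135 in DKO cells (0.30, interval -0.09 to 0.69). NDUFA4, which is now counted as a subunit of complex IV, outnumbered it 28.2 to 1 in reads in the control library and 27.2 to 1 in the DKO library. Moving NDUFA4 to complex IV gave medians of -0.03 for complex I and 0.05 for complex IV.

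Complex II oxidizes succinate and links the chain to the citric acid cycle. SDHA, its catalytic flavoprotein, had 3283 reads in control cells and 2574 in DKO cells, and was the lowest of the complex (-0.50, interval -0.57 to -0.42). SDHB, the iron-sulfur subunit and the most abundant per length (FPKM 148.82 and 160.01), had 1582 and 1850 reads (0.08, interval -0.02 to 0.17). The ratio of SDHA to SDHB reads was therefore 2.08 in the control library and 1.39 in the DKO library, a ratio within each library that no scaling touches. The membrane anchors SDHC (2138 and 2008 reads, log2 fold change -0.24) and SDHD (885 and 885 reads, -0.15) lay between them. A further identifier listed as SDHD (ENSG00000255292), which overlaps the gene, had 149 and 144 reads (-0.20). SDHA, SDHC and SDHD had fractional counts, as arise when reads are divided between loci, so their values are uncertain to that extent.

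Complex III passes electrons from ubiquinol to cytochrome c. The subunits that carry its electrons on the nuclear side were near the control values: CYC1 (cytochrome c1) had 4328 and 4284 reads (-0.16, interval -0.22 to -0.10). UQCRFS1, the Rieske iron-sulfur protein, had 1753 reads in control cells and 1892 in DKO cells (-0.04, interval -0.13 to 0.06). Its largest core protein gene by reads, UQCRC1 (chr3:48599002-48610976), had 6034 and 4874 reads (-0.46, interval -0.51 to -0.40). The small subunit gene UQCR10 was the lowest of the complex, with 921 and 716 reads (-0.51, interval -0.65 to -0.37). UQCRH, the hinge protein, was the only measured nuclear gene of the complex above 0, with 2287 and 2766 reads (0.13, interval 0.05 to 0.21), and the most abundant per length (FPKM 377.12 and 424.27).

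Complex IV reduces oxygen. Its nuclear subunits COX4I1, COX5A and COX5B surround the catalytic core encoded in mtDNA, and all 3 had intervals above 0. COX4I1 had 3398 reads in control cells and 4139 in DKO cells (0.14, interval 0.07 to 0.20). COX5A had 1363 and 1641 reads (0.12, interval 0.01 to 0.22). COX5B had 1337 and 1867 reads and the highest value among nuclear genes of the complex (0.33, interval 0.23 to 0.44). The most abundant per length was COX6A1, with an FPKM of 843.45 and 799.64. COX7A2L (ENSG00000115944, chr2:42333546-42425088), known for joining complexes III and IV into supercomplexes, had 363 and 268 reads and was called lower (-0.59, interval -0.82 to -0.35). None of the muscle, lung or germ-cell isoforms was above the floor of 3 reads: COX4I2, COX6A2, COX7B2 and COX8C had 0 reads in both libraries, COX6B2 had 1 and 0, and COX7A1 had 0 and 1. A count of 3 reads is 0.301 CPM (counts scaled to library depth) in the control library and 0.28 CPM in the DKO library.

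In complex V the alpha and beta chains differed in direction. The catalytic head is built from alternating alpha and beta chains in equal number, turned by the gamma chain. ATP5A1, the alpha chain (ENSG00000152234, chr18:46080248-46104334), had 14876 reads in control cells and 10273 in DKO cells, for a log2 fold change of -0.68 (interval -0.72 to -0.65), or 1.61-fold lower. ATP5B, the beta chain and the most abundant nuclear gene of the whole chain per length (FPKM 1519.61 and 1768.36), had 27491 and 34763 reads (0.19, interval 0.17 to 0.21). ATP5C1, the gamma chain, had 2514 and 2752 reads (-0.02, interval -0.10 to 0.06). The alpha to beta ratio of reads was 0.541 in the control library and 0.296 in the DKO library, a drop of 1.83-fold (0.56 and 0.316 by FPKM).

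ATP5S, not a subunit of the ATP synthase itself, had the highest log2 fold change under the ATP5 symbols, with 216 and 324 reads (0.44, interval 0.18 to 0.69). By FPKM its value was 3.17 and 3.63, a log2 ratio of 0.20. Across all 5 complexes, the widest gap between the count and the FPKM result was for NDUFA9, at -0.11 by reads and 0.23 by FPKM, with fractional counts. Both retrocopies of ATP synthase genes were under the floor, ATP5L2 with 0 reads in both libraries and ATP5EP2 with 0 and 1. UQCRHL, a retrocopy of UQCRH, had 2 and 3.

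The 13 genes of mtDNA took a smaller share of the DKO library. They held 5.19% of all reads in the control library (interval 5.18 to 5.21) and 4.47% in the DKO library (4.46 to 4.48), while the nuclear genes of the chain held 1.61% and 1.59%. MT-CO1 alone, the catalytic subunit of complex IV, held 1.84% and 1.34%, and without it the mtDNA share was 3.36% and 3.13%. By summed FPKM the shares were 9.42% and 8.45%. The median over genes and the sum over reads differ here: the mtDNA median lay 0.03 below the nuclear one (a difference of -0.03), whereas the summed reads gave log2 fold changes of -0.26 for mtDNA and -0.06 for nuclear genes, a difference of -0.20. In bulk RNA, fewer cells with these transcripts and less of them per cell cannot be told apart. How RNA was selected for the libraries is not given in the sources used here, and its part in these shares was not tested.

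The mtDNA genes differed among themselves. Intervals lay below 0 for 5 of them and above 0 for 3, and included 0 for 5, although heavy-strand genes are transcribed together. Among all 13318 genes, 3917 intervals lay below 0, 3963 above, and 5438 included it. Median reads summed over both libraries were 57304 for the genes of mtDNA and 637 for all genes. At that depth an interval can exclude 0 for a small difference. In complex IV, MT-CO1 had 183073 reads in control cells and 143693 in DKO cells (-0.50, interval -0.51 to -0.49), and MT-CO3 had 59914 and 45620 (-0.54, interval -0.56 to -0.52). MT-CO2, which binds cytochrome c and lies between them, had 68221 and 77806 reads (0.04, interval 0.03 to 0.06). The ratio of MT-CO1 to MT-CO2 reads was 2.68 in the control library and 1.85 in the DKO library, and none of the 3 genes was past 1.5-fold.

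In complex I, MT-ND4 had 64351 reads in control cells and 53125 in DKO cells (-0.43, interval -0.44 to -0.41). MT-ND4L, carried on the same message as MT-ND4, had 6558 and 5672 (-0.36, interval -0.41 to -0.31), and MT-ND2 had 29258 and 28046 (-0.21, interval -0.23 to -0.19). These were the complex I genes of mtDNA with intervals below 0. The other 4 all included it: MT-ND1 had 10548 and 11527 reads (-0.02), MT-ND3 2193 and 2475 (0.03), MT-ND5 30963 and 34784 (0.02), and MT-ND6 3494 and 3707 (-0.06). MT-ND6 lies on the opposite strand, and because the strandedness of the libraries is not given in the sources used here, its reads cannot be told apart from antisense RNA of the heavy-strand transcript. The ratio of MT-ND4 to MT-ND5 reads was 2.08 in the control library and 1.53 in the DKO library. MT-CYB, the mtDNA subunit of complex III, had 23574 and 26916 reads (0.04, interval 0.02 to 0.07).

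In complex V, MT-ATP8 and MT-ATP6 encode subunits of the membrane part and share 1 message and 46 bases of coding sequence, shown here because reads there cannot be assigned to either gene, with the MT-ATP6 start codon in capitals (GRCh38).
MT-ATP8 and MT-ATP6 (chrM:8527-8572, plus strand): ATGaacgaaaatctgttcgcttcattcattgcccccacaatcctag
MT-ATP8 is 207 bases long and MT-ATP6 is 681. MT-ATP6 had 33937 reads in control cells and 43870 in DKO cells, the highest value of mtDNA (0.22, interval 0.20 to 0.24). MT-ATP8 had 1699 and 1795 reads (-0.07, interval -0.17 to 0.03). The ratio of MT-CO3 to MT-ATP6 reads, neighbours on mtDNA, was 1.77 in the control library and 1.04 in the DKO library, a drop of 1.70-fold. MT-CO1 and MT-ATP6 had fractional counts, and nuclear DNA holds near-identical copies of stretches of mtDNA, so the counts of these genes are uncertain in how shared reads were divided.

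**Figure D3:**
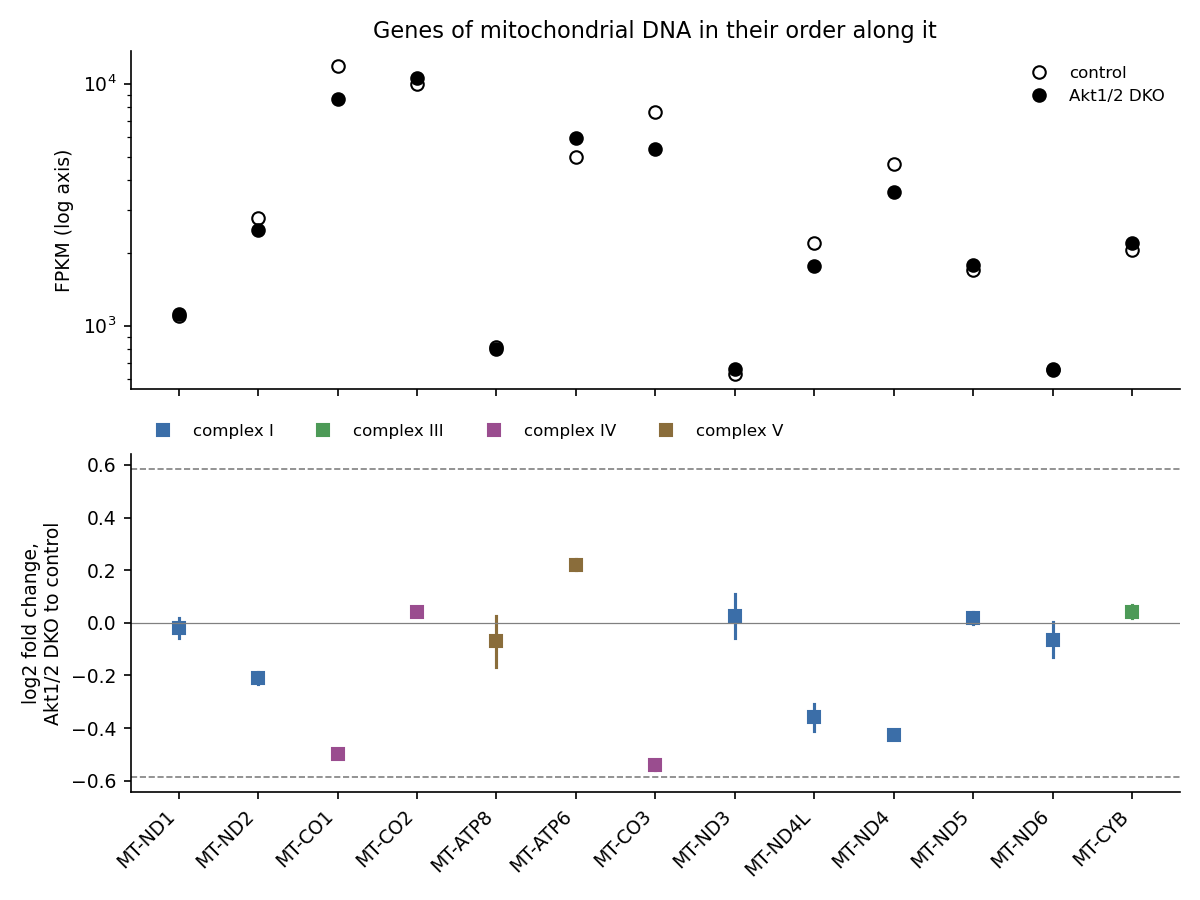
The 13 genes of mtDNA in their order along the genome. The upper panel gives FPKM on a log axis in the control (open) and Akt1/2 DKO (filled) libraries, and the lower panel the log2 fold change with its 95% exact interval (counting error only, often smaller than the symbol); MT-CO1, MT-CO3, MT-ND4L and MT-ND4 lie below -0.30, and no gene crosses the dashed 1.5-fold lines.

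Position in the nuclear genome went with part of the result. Chromosome 3 was lower as a whole in the DKO library, with a median log2 fold change of -0.53 and 579 of 666 genes below 0 (genes with at least 50 reads). The chain has 3 genes there, NDUFB4, NDUFB5 and UQCRC1, and all 3 were lower. Around NDUFB4 the 20 nearest genes (10 on each side) had a median of -0.84 and 20 of 20 were below 0. Around NDUFB5 the median was -0.68, with 17 of 20 below 0, and around UQCRC1 it was -0.42, with 18 of 20. Without chromosome 3, 2 of 92 genes of the chain were past 1.5-fold (2.17%, against 30.9% of all genes on any chromosome), ATP5A1 and COX7A2L. A difference in chromosome number or structure between the cells and an effect of Akt1/2 on these genes cannot be told apart here.

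ATP5A1 and SDHA were lower than the genes around them. The neighbours of ATP5A1 on chromosome 18 had a median of -0.15, with 13 of 20 below 0, and the chromosome median was -0.19. NDUFV2, the other chain gene of that chromosome, had a log2 fold change of -0.19. SDHA, near the end of chromosome 5, had 11 neighbours with a median of -0.00, and COX7A2L on chromosome 2 had neighbours with a median of -0.08. On chromosome 8, with a median of -0.20, COX6C was at -0.43 (1552 and 1278 reads), UQCRB at -0.21 and CYC1 at -0.16, whereas NDUFB9 was at 0.28 (794 and 1072 reads, interval 0.15 to 0.42).

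**Figure D4:**
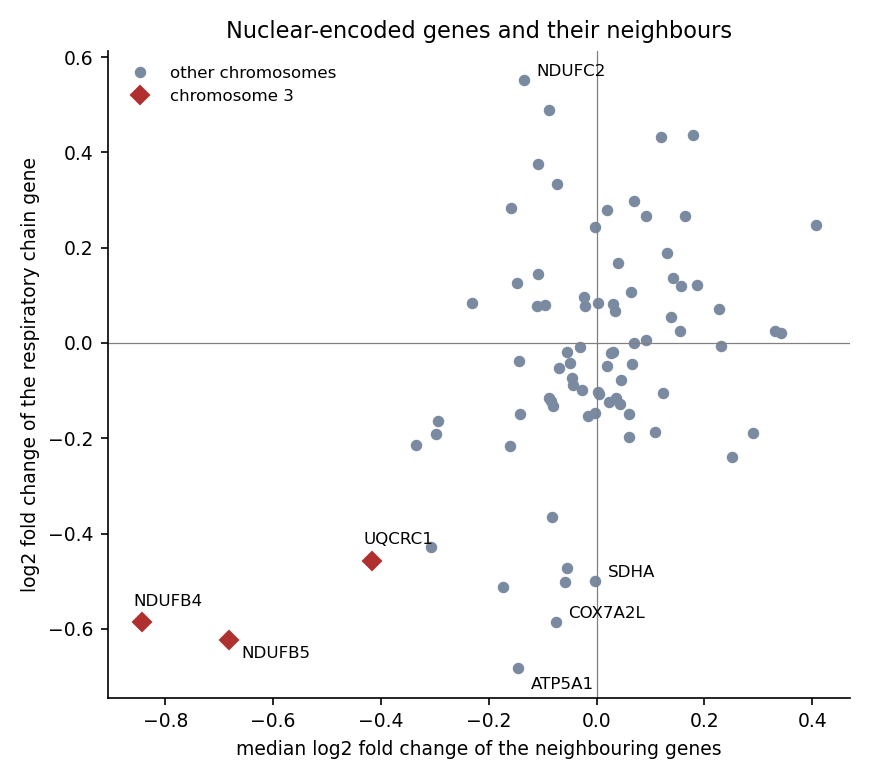
Log2 fold change of each of the 82 measured nuclear genes of the respiratory chain (vertical) against the median log2 fold change of up to 20 neighbouring genes (horizontal). The 3 genes of chromosome 3 (diamonds) sit at the left with lowered neighbours, whereas ATP5A1, COX7A2L and SDHA lie low beside neighbours with medians of -0.15, -0.08 and -0.00.

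Motifs of known activators were frequent in the promoters of the nuclear genes. RefSeq promoters (250 bases before to 50 after the start) were matched for 68 of the 91 nuclear genes, 61 of them measured subunits. Searched on both strands, the NRF1 motif was in 15 of the 61 (24.6%), against 6.29% of all 27305 promoters. The motif CCGGAAG of GABPA, another activator of respiratory genes, was in 19 (31.1% against 10.6%), and AAGATGGC of YY1 in 11 (18.0% against 3.01%). At least 1 of these motifs, some of which overlapped others, was in 36 of the 61 (59.0% against 17.8%). The median log2 fold change was -0.12 for subunits with the NRF1 motif and -0.00 for those without, for GABPA it was -0.04 and -0.06, and for YY1 -0.09 and -0.04. The 27305 promoters were not limited to genes measured here, whereas the 61 were, so these shares compare unlike sets. A match says only that the letters are present.

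Of the factors that bind these motifs or drive such promoters, none with more than 10 reads summed over both libraries was past 1.5-fold. NRF1 had 331 reads in control cells and 353 in DKO cells (-0.06), and GABPA 398 and 441 (-0.00). ESRRA, an orphan nuclear receptor known for activating respiratory genes, had 969 and 1392 (0.37, interval 0.25 to 0.49), and the coactivator PPARGC1B 586 and 853 (0.39, interval 0.24 to 0.55). PPARGC1A, the best-known coactivator of mitochondrial biogenesis, had 0 reads in both libraries. Of the 13 regulators, 11 were measured, with a median of 0.10. ESRRB, on 3 and 7 reads, was the only call (9.09% called, against 30.9% of all genes).

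Factors for mtDNA and its RNA showed 2 of 31 genes higher past 1.5-fold and none lower (6.45% called, against 30.9% of all genes), with a median of 0.07. FASTKD1, of a family that handles mitochondrial RNA, had 178 and 313 reads (0.67, interval 0.40 to 0.94). POLG2, the accessory subunit of the mtDNA polymerase, had 60 and 106 (0.67, interval 0.20 to 1.15). TFAM, which packages mtDNA and starts its transcription, had 332 reads in control cells and 466 in DKO cells (0.34, interval 0.13 to 0.55), and TFB2M, its partner at the promoter, 406 and 560 (0.32). POLRMT, the mitochondrial RNA polymerase, had 1576 and 1625 (-0.10). LRPPRC, which stabilizes mtDNA-encoded messages, had 1803 and 1666 (-0.26, interval -0.36 to -0.17).

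Assembly factors build the complexes without staying in them. Of 56 measured, 2 were higher and 4 lower (10.7% called, against 30.9% of all genes), with a median of -0.01. In complex I both calls were lower and both genes lie on chromosome 3: ACAD9 had 1192 and 744 reads (-0.83, interval -0.96 to -0.70) and TIMMDC1 1038 and 747 (-0.62, interval -0.76 to -0.49). In complex IV, COA3, which acts on newly made MT-CO1, had 698 reads in control cells and 430 in DKO cells (-0.85, interval -1.02 to -0.67). COX11, a copper chaperone, had 50 and 108 (0.96, interval 0.47 to 1.48), and COA6, which helps deliver copper to MT-CO2, had 112 and 214 (0.79, interval 0.45 to 1.13). The last call was a second identifier of SCO2 with 32 and 13 reads, beside 379 and 546 for the main one (0.38). Factors for complex V had the lowest median of the 5 sets, -0.33 over 5 genes by reads and -0.08 by FPKM, with none past 1.5-fold.

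Another list held 19 genes for cytochrome c, ubiquinone synthesis and other electron donors. Of these, 2 were higher and none lower (10.5% called, against 30.9% of all genes), with a median of 0.01. COQ8A, a kinase-like protein of ubiquinone synthesis, had 488 reads in control cells and 1263 in DKO cells (1.22, interval 1.07 to 1.38). GPD2, which hands electrons from cytosolic glycerol 3-phosphate to ubiquinone, had 376 and 669 (0.68, interval 0.50 to 0.87), although its FPKM of 10.58 and 14.53 gave a log2 ratio of 0.46. CYCS, cytochrome c itself, had 2411 and 3891 (0.54, interval 0.47 to 0.62). NDUFAB1, the acyl carrier protein of complex I that the symbol rule leaves out, had 1527 and 1421 (-0.25, interval -0.36 to -0.15).

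**Figure D5:**
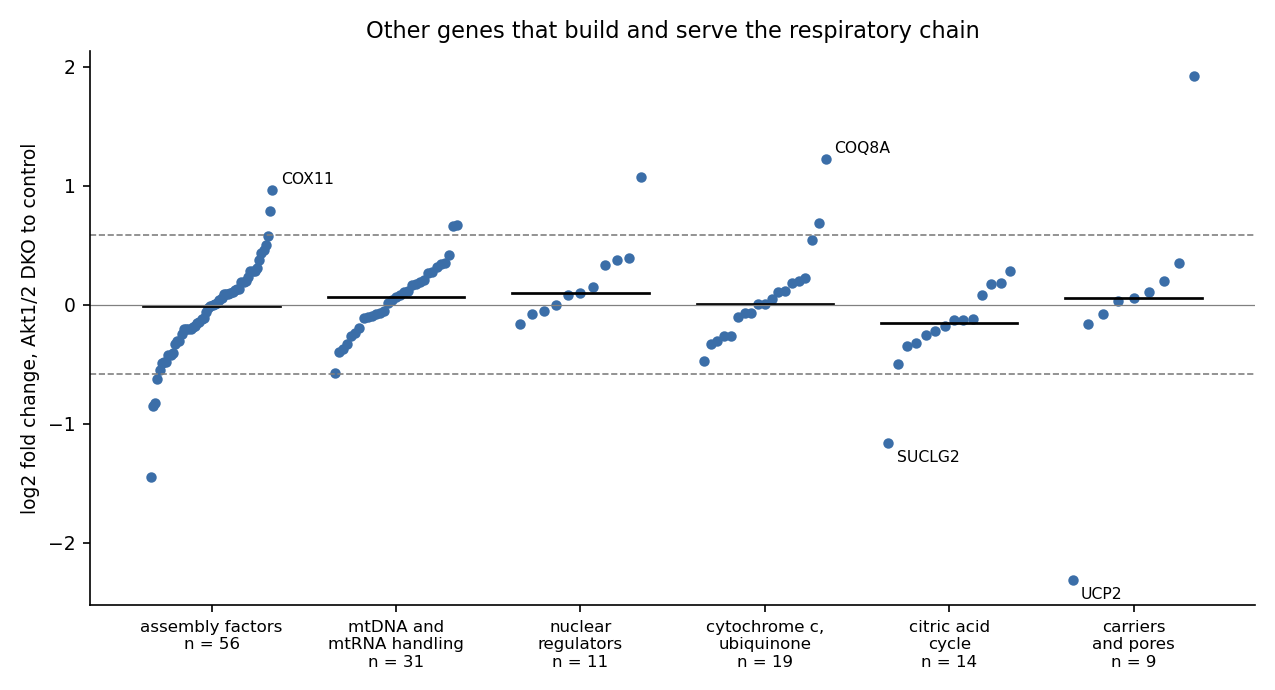
Log2 fold change of genes that build, regulate or feed the respiratory chain, Akt1/2 DKO to control, sorted within each list, with black lines for medians and dashed lines for 1.5-fold. Named points lie beyond 0.90 on the log2 scale and have 100 or more reads summed over both libraries; COQ8A is high in its list, and UCP2 and SUCLG2 are low in theirs.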

How the data were processed

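RNA sequencing of 1 Akt1/2 DKO and 1 control library was used. The authors deposited estimated counts per gene, without normalization, and FPKM values for the same libraries. Per the labels' processing notes, fastp 0.20.0, TopHat, Cufflinks, edgeR and GRCh38.p10 were used, with no role given. Deposited fold changes, p-values, similarity scores and ontology summaries of the authors' own comparison were not used. Estimated counts were rounded to whole reads. Library sizes were scaled by TMM (edgeR 4.0.16, R 4.3.3), and intervals are exact (Clopper-Pearson, scipy 1.17.1), for counting error only, since reads without molecular identifiers are not independent molecules. The scripts were tested on simulated data. Gene positions came from GENCODE release 29 (GRCh38), which held 19571 of 19607 identifiers and 104 of 104 members.

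Members and lists were chosen with earlier results of these data known. Named genes are AKT1, AKT2, all MT- genes, nuclear members past 1.5-fold with at least 100 reads, in each complex the most abundant, highest and lowest, restricted isoforms, chromosome 3 members, core subunits, and in other lists genes past 1.5-fold with at least 100 reads and preset factors. NDUFA4, NDUFA9, COX6C, UQCRB, NDUFB9, NDUFV2, ESRRB, the second SCO2 identifier, UCP3, retrocopies and overlapping loci were named after their values were seen. Alternatives were total count, upper-quartile and DESeq2 1.42.0 scaling, TMM without MT- genes, FPKM, other read filters, other folds and subsets of members. Some results are not reported here.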

Additional observations from a re-analysis of the deposited data

How the results depend on the processing

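The count of 4 respiratory chain genes past 1.5-fold stayed at 4 with DESeq2 size factors, with TMM computed without MT- genes, with 10 reads asked of each library, and with 50 or 200 reads asked of both together (the last chosen after seeing the data). It was 2 with total-count scaling, with upper-quartile scaling and by FPKM (1 higher, 1 lower), since NDUFB4, NDUFB5 and COX7A2L lie near the limit. It was 2 without chromosome 3, 7 with no filter (2 higher, 5 lower, the added 3 having 1 read in 1 library), 21 at a limit of 0.32 on the log2 scale (6 higher, 15 lower) and 0 at 2-fold. Group medians stayed between the median lower and the median upper bound of their genes' intervals. That band is as wide as a typical single gene's interval and is not an interval of the median, so it is a loose check. The difference of mtDNA from nuclear genes was -0.20 by summed reads in place of -0.03 by medians, because the abundant MT-CO1, MT-CO3 and MT-ND4 weigh more in a sum. The mtDNA share of the control library was 9.42% by summed FPKM and 3.36% without MT-CO1, and that of the DKO library 8.45% and 3.13%. Over 63 named genes, 278 of 315 alternative values lay inside the gene's interval, and no called gene changed sign. The sign of ATP5C1, GABPA, MT-ND1 and UQCRFS1 depended on the scaling, and that of NRF1 was positive by FPKM alone (0.03). Scaling moved the median of all genes by at most 0.05. No paired analysis was possible because there is only 1 library on each side. No replicate could be left out for the same reason, and variation between cultures or clones is not measured.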

Other observations

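Enzymes of the citric acid cycle, which supply the chain with NADH and succinate, were lower than 0 in 10 of 14 cases. Among all genes tested, 6567 of 13318 were below 0. The median log2 fold change of the 14 was -0.15. SUCLG2, the GTP-forming subunit of succinyl-CoA ligase on chromosome 3, was the only enzyme of the cycle past 1.5-fold (7.14% called, against 30.9% of all genes). It had 1359 reads in control cells and 674 in DKO cells (-1.16, interval -1.30 to -1.03). Without it the median was -0.13.

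Among 9 measured carriers and pores of the mitochondrial membranes the median was 0.06. Of these, 1 was higher and 1 lower past 1.5-fold (22.2% called, against 30.9% of all genes). UCP2, a carrier of the inner membrane, had 1031 reads in control cells and 230 in DKO cells (-2.31, interval -2.53 to -2.11), 4.97-fold lower, whereas UCP3 had 5 and 21 reads (1.92, interval 0.48 to 3.68). Mitochondrial ribosomal proteins, which translate the messages of mtDNA, had 1 of 78 genes higher and 5 lower past 1.5-fold (7.69% called, against 30.9% of all genes), with a median of 0.07. Cytosolic ribosomal proteins had 2 of 97 higher and 2 lower (4.12% called), with a median of 0.02.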
